A study of Mus musculus with 6 samples.

Results

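Cells take up and exchange amino acids through families of plasma membrane carriers, and the genes of 7 such families were followed here in brown adipocytes whose synthesis of coenzyme Q (CoQ) was inhibited. The members were all genes of the deposited expression table whose symbol starts with Slc1a, Slc3a, Slc6a, Slc7a, Slc36a, Slc38a or Slc43a, 66 of 24537 genes. Of these, 63 are carriers or carrier subunits and 3 (Slc36a1os, Slc6a19os and Slc7a6os) are genes named only for lying on the opposite strand near a carrier gene. The families were taken whole, so they also hold carriers of creatine, taurine, neurotransmitters and nucleobases, and carriers of lysosomal rather than plasma membranes.

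Messenger RNA was sequenced in 6 libraries, of which 3 came from vehicle controls (CTL) and 3 from adipocytes given 4 mM 4-chlorobenzoic acid (4CBA), an inhibitor of the CoQ biosynthetic enzyme COQ2. Both groups are the same immortalized murine brown preadipocyte line, differentiated in culture into mature adipocytes, and 4CBA or vehicle was present for 48 h from day 4 by the sample labels, whereas the methods of the study give a shorter treatment. The line is a single cell culture model without the other cells of brown fat, and the methods say that replicates were pooled to make RNA samples, so the p-values reflect how far these libraries scatter, and that scatter may be technical. Values are RPKM, read counts scaled to exon length and library size. By the steps between low values the libraries held an estimated 9430000 to 12300000 reads, an estimate that puts 68.9% to 70.9% of low values within 0.1 of a whole read.

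SLC3 proteins are single-pass heavy chains that carry SLC7 light chains to the cell surface as disulfide-linked pairs. The light chain is the transporter, and the pair of SLC3A2 (4F2hc, CD98) with SLC7A5 exchanges intracellular glutamine for leucine and other large neutral amino acids. Other SLC7 proteins carry arginine and lysine without a heavy chain, SLC1 and SLC38 proteins move glutamine, alanine, serine and glutamate with sodium, SLC36 proteins move glycine, proline and alanine with protons, and many SLC6 proteins move transmitters and osmolytes with sodium and chloride. When amino acids run short or another stress blocks translation initiation, the transcription factor ATF4 is made and is known to activate several of these genes, through composite C/EBP-ATF elements in mammalian genes.

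That element was searched in the promoters of the members, because sequence was not used to choose them. RefSeq promoter windows of build GRCm38.p6, which run from 250 bases before to 50 bases after an annotated start, were matched for 45 of the 63 transporters. The letters TGATGNAA, the core of the composite element, were found on either strand in at least 1 window of 4 of these 45 genes (8.89%) and of 1219 of all 27025 genes with a window (4.51%). Among transporters that were higher in 4CBA, 3 of 11 with a window held it (Slc7a11, Slc1a4 and Slc7a7), against 131 of 3829 higher genes of the whole table (3.42%), while 0 of 5 lower and 0 of 5 uncalled transporters did. Without Slc7a7 and Slc6a12, which passed the filter on low values only through 4CBA and so could only be called higher, the count was 2 of 9. The fourth was Slc6a21, which was below that filter. A match is a description of the sequence and shows no binding, and no match says only that these letters are absent from this window.
Windows of the higher genes with a match are shown because they carry these letters, and that of Slc3a2 because it reached the highest level of all members in 4CBA without them. Capitals mark the element, written TTGCATCA where it lies on the opposite strand, and all 4 genes lie on the minus strand.
Slc7a11, chr3:50443564-50443863: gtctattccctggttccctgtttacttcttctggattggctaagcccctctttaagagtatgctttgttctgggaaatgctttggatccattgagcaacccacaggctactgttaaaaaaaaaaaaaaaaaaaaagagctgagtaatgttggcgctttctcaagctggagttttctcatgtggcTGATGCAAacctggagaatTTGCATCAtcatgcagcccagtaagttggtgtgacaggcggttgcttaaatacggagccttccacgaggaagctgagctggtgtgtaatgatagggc
Slc1a4, chr11:20332664-20332963: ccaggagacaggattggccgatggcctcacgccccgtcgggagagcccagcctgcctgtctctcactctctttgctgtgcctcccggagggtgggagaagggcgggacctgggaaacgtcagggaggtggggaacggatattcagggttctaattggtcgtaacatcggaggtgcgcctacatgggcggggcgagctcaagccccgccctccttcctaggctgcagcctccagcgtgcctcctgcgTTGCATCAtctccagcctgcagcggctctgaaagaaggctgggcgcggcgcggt
Slc7a7, chr14:54417653-54417952: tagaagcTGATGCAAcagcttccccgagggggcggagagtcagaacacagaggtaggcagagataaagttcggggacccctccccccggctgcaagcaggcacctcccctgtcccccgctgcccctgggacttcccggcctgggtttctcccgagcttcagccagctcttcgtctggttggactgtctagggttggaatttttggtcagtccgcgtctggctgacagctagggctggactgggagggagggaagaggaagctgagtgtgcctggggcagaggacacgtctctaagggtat
Slc3a2, chr19:8713848-8714147: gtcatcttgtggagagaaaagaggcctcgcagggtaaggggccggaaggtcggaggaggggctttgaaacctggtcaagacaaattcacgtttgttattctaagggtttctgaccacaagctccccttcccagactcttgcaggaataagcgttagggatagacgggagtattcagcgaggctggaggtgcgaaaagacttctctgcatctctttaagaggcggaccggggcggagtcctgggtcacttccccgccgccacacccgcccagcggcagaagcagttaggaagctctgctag
The Slc7a11 window holds a pair of matches in opposite orientation, whose first letters lie 66 and 47 bases before the start. In Slc1a4 the match begins 4 bases before the start, and in the Slc7a7 window shown it begins 243 bases before it. An overlapping Slc7a7 window, further upstream, holds the same site and another one before it. The core of the antioxidant response element, TGACNNNGC, which Nrf2 is known to bind, was found in windows of 9 of 45 transporters (20.0%) and of 3781 of all 27025 genes. It was found in 3 of 11 higher transporters (Slc38a2, Slc6a9 and Slc7a1), against 17.2% of the higher genes of the table. Among lower transporters 2 of 5 held it (Slc43a1 and Slc7a6), against 16.7% of the lower genes, as did 1 of 5 uncalled ones. The windows of Slc6a9 and Slc43a1 lie at other annotated starts than that of the isoform whose RPKM is given.

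Most transporter genes that these adipocytes used were higher with 4CBA, and a few fell steeply. A member was tested with limma on log2(RPKM + 1) if 3 or more libraries had an RPKM of 0.5 or above, as 32 of the 66 did, and on this scale fold changes of low genes come out too small. Of these 32, 18 were higher in 4CBA (56.2%), 6 were lower (18.8%) and 8 were not called, the threshold being a p of 0.05 after Benjamini-Hochberg adjustment. Over all 12659 genes tested, 38.4% were higher, 30.0% were lower and 68.4% were called in either direction. Slc6a12 and Slc7a7 passed the filter only through their 4CBA values and so had to differ, and without them 16 of 30 tested members were higher, 11 of them by at least 1 on the log2 scale. The members higher by at least 1 on the log2 scale were 12 of all 32 (37.5%), against 5.47% of all tested genes, and 3 of 32 (9.38%) were lower by at least as much, against 6.00%. In 26 of the 32 (81.2%) the groups did not overlap, against 72.7% of all genes tested, and the 26 include Slc6a12 and Slc7a7. On the log2 scale the median change was 0.70 over the tested members, beside 0.06 over every gene tested.

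**Figure D1:**
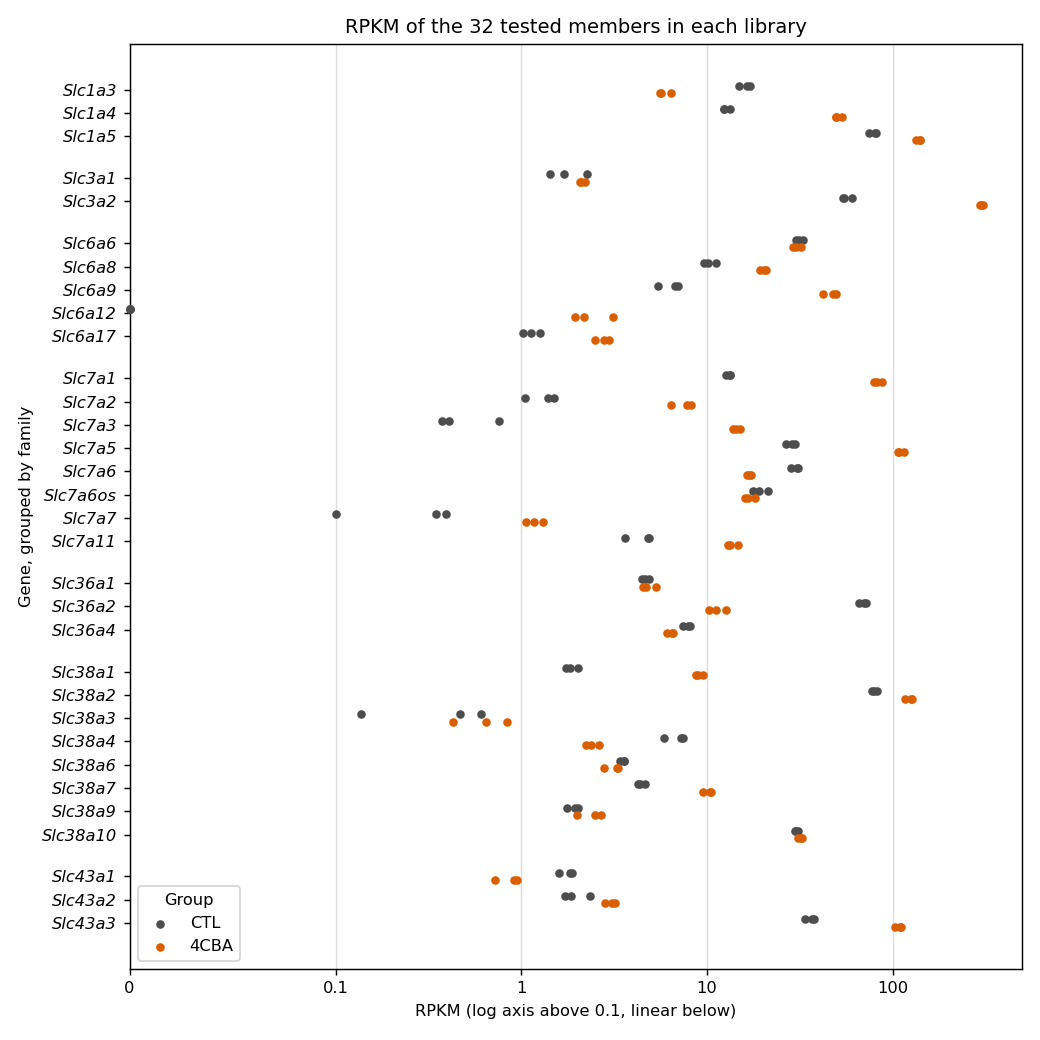
RPKM (log axis above 0.1, linear below) of the 32 tested members in each of 3 CTL (grey) and 3 4CBA (orange) libraries, grouped by family, with 1 point per library. The 3 4CBA points of Slc3a2, Slc7a1 and Slc6a9 sit far to the right of their CTL points, those of Slc36a2, Slc1a3 and Slc38a4 sit to the left, and the CTL points of Slc6a12 are at 0.

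The median log2 expression over the tested genes was 0.108 higher in 4CBA than in CTL libraries. Relative to this shift each log2 fold change below moves down by that amount, so that rises are smaller and falls larger. The whole table then had 3907 higher and 4767 lower genes in place of 4860 and 3804. No call of a member that was higher or lower was lost under that scaling, but Slc38a6, Slc6a6 and Slc7a6os were then called lower, and the log2 fold changes of Slc36a1 and Slc38a10, which did not pass the test, turned negative. The 63 transporters together made up 0.154% ± 0.0011 (SD, n = 3) of the summed RPKM of all genes in CTL and 0.352% ± 0.0088 (SD, n = 3) in 4CBA. Their summed level was 545 ± 7.66 RPKM in CTL and 1165 ± 17.2 RPKM in 4CBA (SD, n = 3 each), 2.14-fold higher, with no overlap between groups. The exact two-sided permutation test gave p = 0.1, the smallest that 3 against 3 libraries allow.

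Brown adipocyte markers were lower in 4CBA in all 7 of 8 listed genes that were tested. Their summed RPKM was 9682 to 10170 in CTL and 4498 to 5707 in 4CBA. Fabp4 made up most of this sum, with means of 8620 RPKM in CTL and 4846 RPKM in 4CBA. It was 1.78-fold lower and Ucp1 16.2-fold lower, so the sum does not give the size of the fall in each marker. Preadipocyte and fibroblast markers were lower in 6 of 7 tested genes (summed 251.4 to 273.5 RPKM against 110.0 to 116.8). In bulk RNA, fewer cells of a type and less RNA per cell cannot be told apart. Markers of macrophages summed to 0.632 to 0.812 RPKM in CTL and 0.239 to 0.896 in 4CBA, with Ptprc, Adgre1 and Itgam at 0 in every library. Endothelial markers summed to 0.06 to 0.128 and 0.203 to 0.418 RPKM, with Cdh5 and Emcn at 0. Markers of neurons and glia summed to 1.09 to 1.15 and 1.02 to 1.47 RPKM, with none of the 7 at 0 in every library. Muscle markers summed to 5.88 to 6.26 and 10.2 to 11.5 RPKM, with Myod1, Myog and Myh3 at 0. Most of that difference was Acta1, at a mean of 0.276 RPKM in CTL and 4.43 in 4CBA, which passed the filter only through 4CBA. Des, at means of 5.84 and 6.35 RPKM, was not called. White adipocyte markers summed to 40.9 to 43.9 and 4.72 to 5.51 RPKM. Whether the change in adipocyte and preadipocyte markers bears on any transporter was not tested.

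The heavy chain gene Slc3a2, on chromosome 19 from 8706882 to 8723369 (GENCODE vM21 on GRCm38, the assembly of mm10), became the most abundant transporter message with 4CBA. Its RPKM was 60.0, 54.2 and 54.7 in the CTL libraries and 308, 298 and 297 in the 4CBA libraries. All 4CBA libraries were far above all CTL libraries, a 5.34-fold difference of means with a log2 fold change of 2.40 (standard error 0.0545, adjusted p = 1.5e-11 from limma). Slc3a2 alone held 10.3% ± 0.445 of the summed transporter RPKM in CTL and 25.8% ± 0.892 in 4CBA (SD, n = 3 each). Slc3a1, the heavy chain rBAT that serves the renal cystine carrier, was low in both groups at 1.43 to 2.25 and 2.07 to 2.20 RPKM and did not pass the test (log2 fold change 0.17, adjusted p = 0.206 from limma). Its groups overlapped, and without CTL replicate 2 it was called higher (log2 fold change 0.29, adjusted p = 0.0417, over all alternatives from 0.0417 to 0.659).

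The light chains that pair with 4F2hc did not move together. Slc7a5 (LAT1), on chromosome 8 from 121881150 to 121907694, was at 29.9, 26.5 and 28.8 RPKM in CTL and at 106, 108 and 115 in 4CBA. This 3.86-fold rise (log2 fold change 1.91, standard error 0.0590, adjusted p = 1.38e-10 from limma) was seen in every 4CBA library. Slc7a6 (y+LAT2), which exchanges arginine for glutamine, started at nearly the same level, 30.4, 31.0 and 28.3 RPKM, and went the other way to 16.4, 17.3 and 16.9. It was 1.77-fold lower (log2 fold change −0.79, standard error 0.0575, adjusted p = 1.96e-07 from limma), with no overlap between groups. The ratio of Slc7a5 to Slc7a6 RPKM was therefore 0.986, 0.853 and 1.02 in CTL and 6.49, 6.25 and 6.79 in 4CBA (exact permutation p = 0.1, the smallest possible).

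Slc7a11 (xCT), which imports cystine in exchange for glutamate and whose promoter holds the paired element shown above, was at 4.83, 3.63 and 4.86 RPKM in CTL and 12.9, 14.6 and 13.2 in 4CBA. The log2 fold change was 1.43 (standard error 0.0972, adjusted p = 1.05e-07 from limma), and the groups did not overlap. Slc7a7 (y+LAT1), another arginine exchanger, was near the limit of detection in CTL at 0.346, 0.394 and 0.1 RPKM, an estimated 9.02, 10 and 2 reads, and at 1.06, 1.17 and 1.31 RPKM in 4CBA. It was called higher (log2 fold change 0.78, adjusted p = 1.03e-04 from limma) but passed the filter only through 4CBA. The other light chains, Slc7a8 (LAT2) and Slc7a10 (Asc-1, known as a surface marker of white adipocytes), stayed below the filter at 0.289 to 0.641 and 0.095 to 0.327 RPKM.

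The light chains known to pair with 4F2hc (Slc7a5, Slc7a6, Slc7a7, Slc7a8, Slc7a10 and Slc7a11) summed to 63.6 ± 2.11 RPKM in CTL and 142 ± 4.78 RPKM in 4CBA (SD, n = 3 each). The heavy chain message was 0.884 ± 0.0212 of that sum in CTL and 2.12 ± 0.111 of it in 4CBA (SD, n = 3 each). The ratio was higher in 3 of 3 4CBA libraries than in any CTL library (exact permutation p = 0.1, the smallest possible). Both are RPKM and so scaled for exon length, but the level of Slc3a2, and with it this ratio and its rank, depends on the RefSeq isoform used for length, which differs for Slc3a2 between the deposited tables. The values say nothing of protein.

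**Figure D2:**
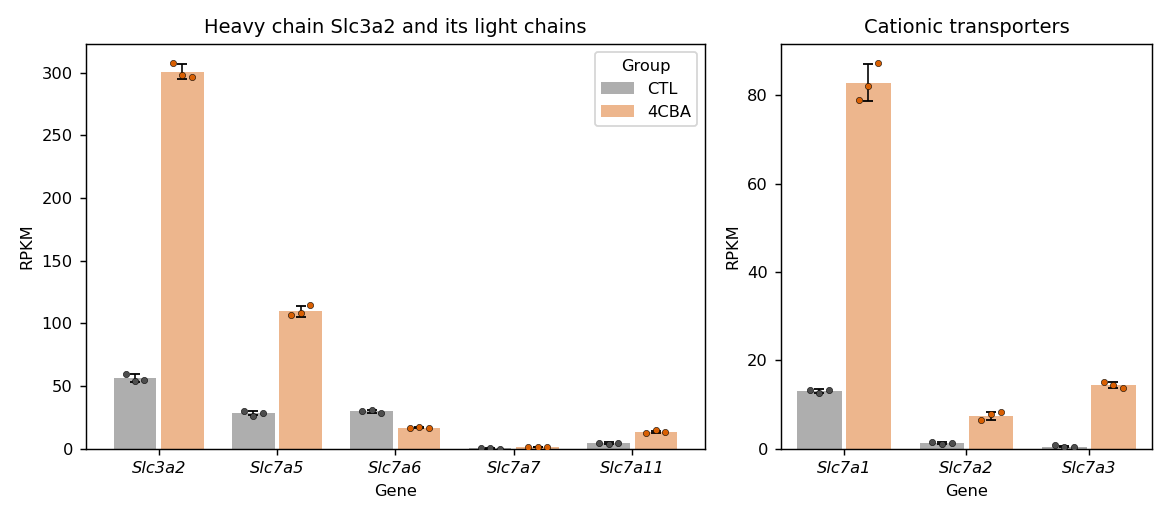
RPKM of the heavy chain Slc3a2 and 4 of its light chains (left) and of the cationic transporters (right), on separate scales. Bars are means, error bars SD and points the 3 libraries of CTL (grey) and 4CBA (orange). Slc3a2 rose from 56.3 to 301 RPKM, Slc7a5 rose while Slc7a6 fell, and all 3 cationic transporters rose.

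The genes of the cationic transporters, which carry arginine, lysine and ornithine, rose together. Slc7a1 (CAT-1), the widely expressed form, on chromosome 5 from 148327410 to 148399904, was at 13.3, 12.6 and 13.3 RPKM in CTL and 79.0, 82.2 and 87.3 in 4CBA. It was 6.34-fold higher (log2 fold change 2.57, standard error 0.0569, adjusted p = 1.39e-11 from limma). Slc7a2 (CAT-2), best known from activated macrophages and liver, was at 1.51, 1.05 and 1.40 RPKM in CTL and 6.41, 7.82 and 8.22 in 4CBA, 5.68-fold higher (log2 fold change 1.87, adjusted p = 3.36e-08 from limma). Slc7a3 (CAT-3), on chromosome X from 101079210 to 101086020 and known mainly from brain, had the largest log2 fold change of all tested members on log2(RPKM + 1) at 3.36 (standard error 0.105, adjusted p = 1.45e-10 from limma). With 0.1 added in place of 1 its value and that of Slc6a12 were both 4.62. Its RPKM was 0.753, 0.405 and 0.373 in CTL, an estimated 20.6, 10.8 and 7.85 reads, and 15.0, 14.4 and 13.7 in 4CBA, so the 28.2-fold ratio of means rests on a low base. The groups did not overlap in any of the 3 genes.

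Slc7a1 remained the main cationic transporter message, with 87.8% ± 2.10 of the sum of the 3 genes in CTL and 79.1% ± 0.688 in 4CBA (SD, n = 3 each). The share of Slc7a3 was 3.40% ± 1.26 and 13.8% ± 1.18 (SD, n = 3 each). The summed level of the 3 genes was 14.9 ± 0.789 RPKM in CTL and 105 ± 4.41 RPKM in 4CBA (SD, n = 3 each), 7.03-fold higher. The remaining SLC7 genes were below the filter (Slc7a4, Slc7a13, Slc7a14 and Slc7a15, at most 0.208 RPKM) or at 0 in every library (Slc7a9 and Slc7a12). Slc7a6os, which lies beside Slc7a6 on the opposite strand without overlapping it in the annotation, was at 17.6 to 21.3 RPKM in CTL and 16.1 to 18.2 in 4CBA, with overlapping groups (log2 fold change −0.17, adjusted p = 0.0589 from limma), and it was called lower in 5 alternatives (over all alternatives adjusted p from 0.00683 to 0.241). Of the 8 tested SLC7 members, 6 were higher and 1, Slc7a6, was lower, against 38.4% and 30.0% of all tested genes. The 6 include Slc7a7, which passed the filter only through 4CBA. The median log2 fold change of the 8 was 1.65.

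Among SLC1 members the neutral amino acid exchangers rose and the glutamate carrier fell. Slc1a4 (ASCT1), which exchanges alanine, serine and cysteine and whose start lies beside the element shown above, was at 13.3, 12.3 and 12.4 RPKM in CTL and 49.8, 53.5 and 49.5 in 4CBA. This was a 4.02-fold rise (log2 fold change 1.93, standard error 0.0583, adjusted p = 1.2e-10 from limma). Slc1a5 (ASCT2), the glutamine exchanger, was one of the most abundant transporter messages in CTL, where its level and that of Slc38a2 differed by less than their SDs. It was at 81.3, 80.5 and 74.9 RPKM in CTL and 133, 140 and 141 in 4CBA, 1.75-fold higher (log2 fold change 0.80, adjusted p = 9.38e-08 from limma). Slc1a3 (EAAT1, GLAST), which takes up glutamate and aspartate, was at 16.4, 14.9 and 17.1 RPKM in CTL and 6.39, 5.65 and 5.55 in 4CBA. It was 2.75-fold lower (log2 fold change −1.32, standard error 0.0761, adjusted p = 2.49e-08 from limma). In each of these 3 genes the groups were apart.

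The other glutamate carriers, Slc1a1, Slc1a2 and Slc1a7, were below the filter and Slc1a6 was at 0 throughout. Slc1a7 was at 0, 0.056 and 0 RPKM in CTL and 0.520, 0.307 and 0.246 in 4CBA, an estimated 18, 10 and 8 reads in the latter. It was not tested, and its groups did not overlap. That held for 5 of the 23 members below the filter with a value above 0. The others of these 5, Slc6a19, Slc6a19os, Slc6a2 and Slc7a15, had lower values in 4CBA.

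The SLC38 genes, sodium-coupled carriers of glutamine and other small neutral amino acids, went both ways. Slc38a2 (SNAT2), which with Slc1a5 was the most abundant transporter message in CTL and is a gene known to respond to amino acid shortage, was at 79.7, 76.9 and 82.1 RPKM in CTL and 117, 126 and 127 in 4CBA, 1.55-fold higher (log2 fold change 0.63, adjusted p = 8.26e-07 from limma). Slc38a1 (SNAT1) rose further from a lower base, from 1.73, 1.82 and 2.02 RPKM to 8.71, 8.94 and 9.49 (log2 fold change 1.81, standard error 0.0822, adjusted p = 3.02e-09 from limma). Slc38a7 (SNAT7), known as the lysosomal exporter of glutamine and asparagine, was at 4.37, 4.61 and 4.23 RPKM in CTL and 9.50, 10.4 and 10.5 in 4CBA (log2 fold change 1.04, adjusted p = 1.48e-07 from limma). Slc38a4 (SNAT4), an imprinted gene best known from liver and placenta, fell from 5.87, 7.39 and 7.23 RPKM to 2.61, 2.37 and 2.23 (log2 fold change −1.20, standard error 0.0977, adjusted p = 5.29e-07 from limma). The groups of these 4 genes did not overlap.

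Slc38a1, Slc38a2 and Slc38a4 are neighbours on chromosome 15 and lie between 96571418 and 97055956. The first and second, both higher, are 44.5 kb apart, and Slc38a4, which was lower, begins 295 kb after Slc38a2. The other tested SLC38 genes did not pass the test. Slc38a10, at 29.7 to 31.1 and 31.1 to 32.4 RPKM, had a log2 fold change of 0.07 (adjusted p = 0.237 from limma). Slc38a9, the lysosomal arginine sensor that acts on mTORC1, had one of 0.21 with overlapping groups (adjusted p = 0.0894, over all alternatives from 0.0294 to 0.378), and it was called higher without 4CBA replicate 2 (log2 fold change 0.30, adjusted p = 0.0294) and with the authors' log2 values (adjusted p = 0.0415). Slc38a3 and Slc38a6 had log2 fold changes of 0.23 and −0.13. Slc38a5 and Slc38a8 were below the filter, and Slc38a11 was at 0 in every library.

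Slc36a2 showed the largest fall of any tested member. It encodes the proton-coupled amino acid transporter PAT2, known as a surface marker of brown adipocytes, and lies on chromosome 11 from 55158470 to 55185077. Its RPKM was 72.2, 69.8 and 65.6 in CTL, where it was the third most abundant transporter message, and 11.2, 10.3 and 12.6 in 4CBA. The fall was 6.09-fold (log2 fold change −2.51, standard error 0.0726, adjusted p = 8.37e-11 from limma), and its share of the summed transporter RPKM was 12.7% ± 0.482 in CTL and 0.975% ± 0.0974 in 4CBA (SD, n = 3 each). Ucp1, the uncoupling protein of brown fat, was lower in the same libraries with a log2 fold change of −3.51 (adjusted p = 2.7e-11 from limma), and what part the lower adipocyte markers have in the Slc36a2 value was not tested.

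The gene beside it behaved differently. Slc36a1 (PAT1), which exports amino acids from lysosomes, lies 19.3 kb away on the opposite strand and was at 4.49, 4.88 and 4.61 RPKM in CTL and 4.67, 4.54 and 5.32 in 4CBA, with overlapping groups (log2 fold change 0.04, standard error 0.0835, adjusted p = 0.658 from limma). Slc36a4 (PAT4), a carrier of proline and tryptophan, fell slightly from 7.80 ± 0.306 to 6.38 ± 0.261 RPKM (SD, n = 3 each), with a log2 fold change of −0.26 (adjusted p = 0.00682 from limma). Slc36a3 was at 0 in every library, and the opposite-strand gene Slc36a1os had a value above 0 in 1 library only.

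**Figure D3:**
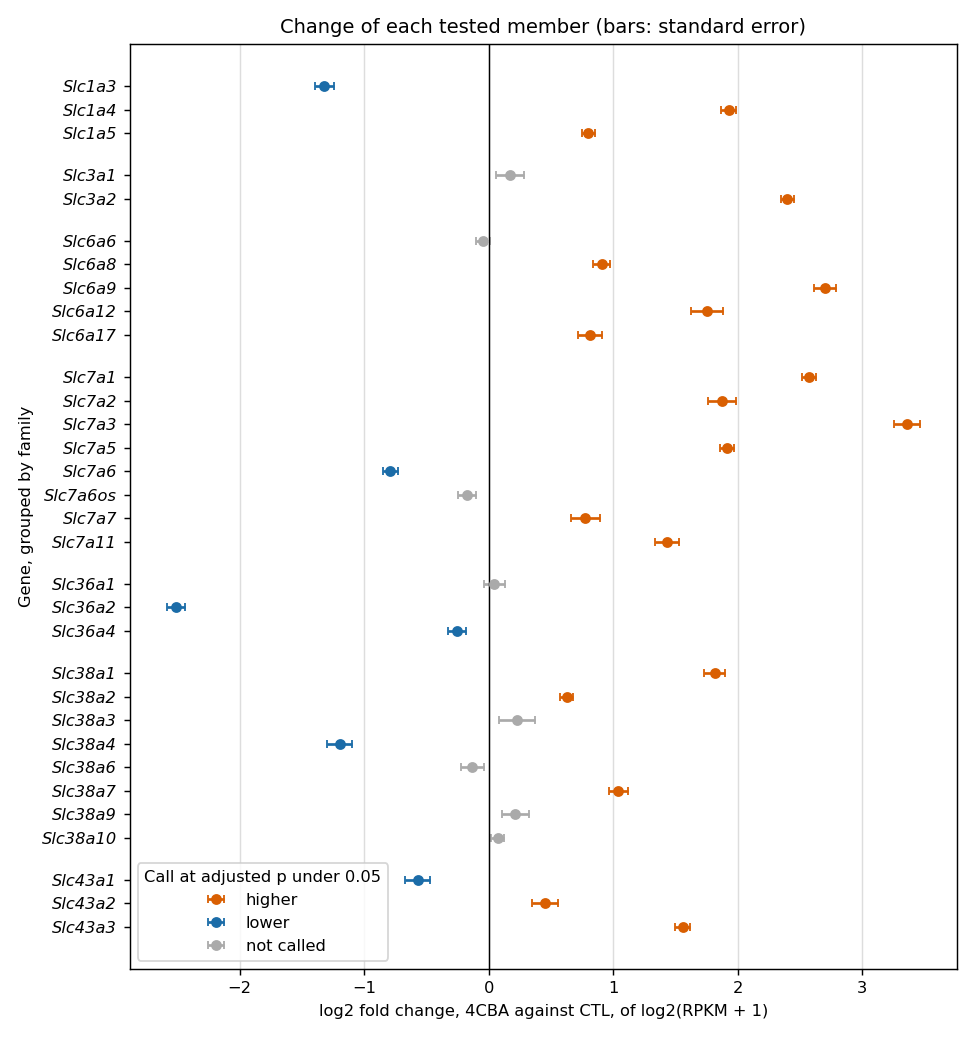
Log2 fold change of 4CBA against CTL on log2(RPKM + 1) for the 32 tested members, by family, with bars of 1 standard error and colours for higher (orange), lower (blue) and not called (grey) at a limma adjusted p under 0.05. The values run from −2.51 for Slc36a2 to 3.36 for Slc7a3. None of the 5 tested SLC6 members was called lower, against 30.0% of all tested genes. None of the 3 tested SLC36 members was called higher, against 38.4% of all tested genes.

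SLC6 was the largest family and the one with the smallest share of members tested, 5 of 22 (22.7%). Slc6a9 (GlyT1), which takes up glycine, on chromosome 4 from 117834506 to 117875198, was at 6.95, 6.68 and 5.44 RPKM in CTL and 42.3, 47.9 and 49.7 in 4CBA. It was 7.33-fold higher (log2 fold change 2.70, standard error 0.0876, adjusted p = 3.08e-10 from limma), with no overlap. Slc6a8, the creatine transporter, was at 9.60, 10.1 and 11.2 RPKM in CTL and 19.3, 20.4 and 20.8 in 4CBA, 1.96-fold higher (log2 fold change 0.91, adjusted p = 2.64e-07 from limma). Slc6a17 (NTT4), a vesicular carrier of neutral amino acids known from neurons, was low in both groups at 1.01 to 1.26 and 2.48 to 2.97 RPKM (log2 fold change 0.81, adjusted p = 1.64e-05 from limma). The neuronal and glial markers given above summed to 1.09 to 1.15 RPKM in CTL and 1.02 to 1.47 in 4CBA, and their part in this value was not tested.

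Slc6a12 (BGT1), which takes up betaine and GABA and is known as an osmolyte carrier of kidney and liver, was listed at 0 in all CTL libraries and at 1.94, 3.11 and 2.19 RPKM in 4CBA. Slc6a12 passed the filter only through 4CBA and so could only be called higher. Its log2 fold change of 1.75 (standard error 0.128, adjusted p = 1.97e-07 from limma) depends on the constant added before the logarithm and was 4.62 with 0.1 in place of 1. The adjacent gene Slc6a13 (GAT2), 5.34 kb away on chromosome 6, was at 0.114 to 0.195 RPKM in CTL and 0 to 0.129 in 4CBA. Slc6a6, the taurine transporter, was the most abundant SLC6 message in CTL and did not pass the test, at 31.2, 30.3 and 32.8 RPKM in CTL and 29.1, 30.0 and 32.1 in 4CBA (log2 fold change −0.05, standard error 0.0585, adjusted p = 0.494 from limma, with a range of 0.0309 to 0.851 across the alternatives). In 4CBA it came second in its family, behind Slc6a9.

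The other 17 SLC6 members were below the filter. Slc6a19 (B0AT1), the neutral amino acid carrier of kidney and gut, was at 0.535, 0.309 and 0.522 RPKM in CTL and 0.107, 0.038 and 0.038 in 4CBA, and was not tested. The carriers of noradrenaline, dopamine and serotonin (Slc6a2, Slc6a3 and Slc6a4) did not exceed 0.139 RPKM in any library. Over all members, 34 were below the filter, of which 11 were at 0 in every library and the highest value was 0.641 RPKM.

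SLC43 was split. Slc43a3, whose protein carries purine nucleobases rather than amino acids, was at 33.5, 37.8 and 36.8 RPKM in CTL and 110, 111 and 103 in 4CBA (log2 fold change 1.56, standard error 0.0588, adjusted p = 6.61e-10 from limma), with no overlap. The branched-chain amino acid carriers were low and moved in opposite directions. Slc43a2 (LAT4) was at 1.84, 1.71 and 2.33 RPKM in CTL and 2.83, 3.19 and 3.09 in 4CBA (log2 fold change 0.45, adjusted p = 0.00211 from limma). Slc43a1 (LAT3) was at 1.87, 1.82 and 1.59 RPKM in CTL and 0.720, 0.946 and 0.912 in 4CBA (log2 fold change −0.57, adjusted p = 3.42e-04 from limma). Slc43a1 and Slc43a3 are neighbours on chromosome 2, 73.0 kb apart.

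**Figure D4:**
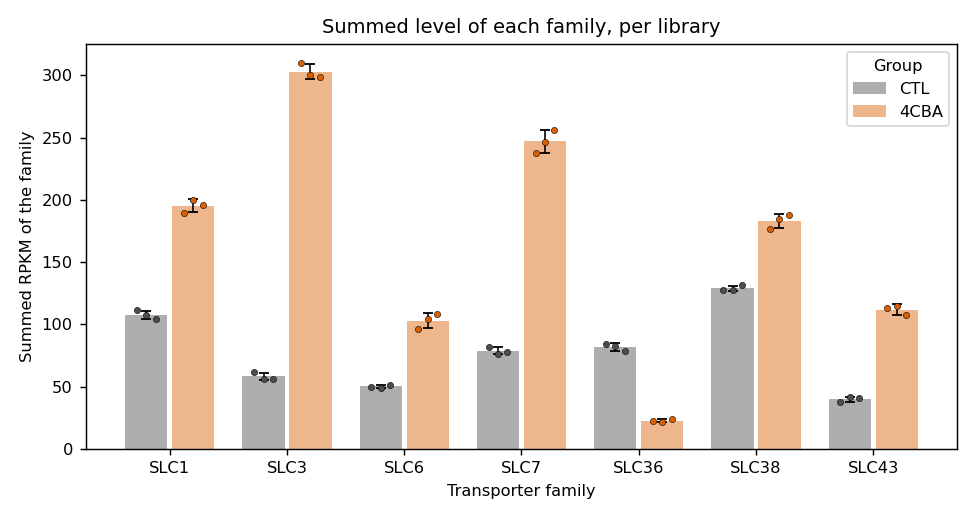
Summed RPKM of the transporters of each family, without the 3 opposite-strand genes, as means (bars) with SD and the 3 libraries (points) of CTL (grey) and 4CBA (orange). SLC3 shows the largest rise, from 58.1 to 303 RPKM, and SLC36 is the only family whose sum is lower in 4CBA.

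Read as sums over families, SLC38 held the most message in CTL (129 ± 2.17 RPKM) and SLC3 the most in 4CBA (303 ± 5.84 RPKM, SD, n = 3 each). The sum of SLC7 was 3.13-fold higher in 4CBA, that of SLC43 2.81-fold, SLC6 2.05-fold, SLC1 1.81-fold and SLC38 1.42-fold, while that of SLC36 was 3.62-fold lower, from 81.7 ± 3.03 to 22.6 ± 1.37 RPKM (SD, n = 3 each). In all 7 families the libraries of both groups were apart, and each exact permutation test gave p = 0.1, the smallest possible. The sums are carried by few genes, since Slc3a2, Slc43a3, Slc1a5 and Slc38a2 each held most of the RPKM of their family in both groups. Slc36a2 and Slc6a6 did so in CTL.

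Genes that act with these transporters were followed in 3 lists, chosen with earlier results of these data known. All 25 tested genes of the ATF4-dependent amino acid response were higher in 4CBA, against 38.4% of all genes, with a median log2 fold change of 1.44. Atf4 itself was 2.79-fold higher, the folate enzyme gene Aldh1l2 had the largest log2 fold change at 3.48, followed by Ppp1r15a, a phosphatase subunit that reverses eIF2α phosphorylation, at 3.31. Of 35 tested genes of amino acid sensing and mTORC1, 18 rose and 5 fell, against 38.4% and 30.0% of all genes. Another 12 were not called, and the median log2 fold change of the 35 was 0.25. The 18 include the mTORC1 subunit genes Mtor, Rptor and Mlst8 and the eIF2α kinase gene Eif2ak4. The Rag GTPase gene Rragd rose from a mean of 1.12 to 8.06 RPKM. The leucine sensor gene Sesn2, which is also counted in the ATF4 list, rose from 10.2 to 44.1 RPKM. The other sestrin genes Sesn1 and Sesn3 had log2 fold changes of −0.64 and −0.75. Of 15 tested genes of other carriers of amino acids and related solutes, 7 rose and 6 fell, against the same 38.4% and 30.0%, with a median log2 fold change of 0.01. Slc15a4, a lysosomal carrier of histidine and peptides, and Ctns, the lysosomal cystine exporter, were 3.02-fold and 2.97-fold higher, whereas the folate carrier gene Slc46a1 and Mfsd12, which brings cysteine into lysosomes, had log2 fold changes of −0.96 and −0.82.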

How the data were processed

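The mRNA libraries were 3 CTL and 3 4CBA, grouped and numbered by their sample labels. The authors aligned reads to mm10 with STAR, counted them over exons in HOMER with a single RefSeq isoform for each gene, and deposited RPKM for 24537 genes. The sources used here state neither tool versions nor whether strand was used in counting. Per the file headers, the RPKM table was computed over 24 libraries, and 6 of them form its columns. The authors also deposited log2 values of these 6, seemingly after a regularized log, which served as an alternative only, and their own DESeq2 fold changes and p-values, which were not used. Both tables name the isoform they kept, and 14 members (11 tested, Slc3a2, Slc7a1, Slc7a3 and Slc6a12 among them) have another isoform in the log2 table, so their RPKM levels depend on that choice.

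Genes at 0.5 RPKM or above in 3 or more libraries were tested with limma 3.58.1 in R 4.3.3 (trend, robust) on log2(RPKM + 1), with Benjamini-Hochberg adjustment over 12659 genes and a threshold of 0.05, after the procedure was tested on simulated data. Depth was estimated from steps between low RPKM values and GENCODE transcript lengths, and reads per gene are estimates from it. For sums and ratios, scipy 1.17.1 gave exact two-sided permutation tests. Alternatives were another pseudocount, no filter or one at an RPKM of 5, the replicate block, each library left out, median scaling, no trend or robust estimation, and the authors' log2 values. Members and lists were chosen with earlier results of these data known. The rule for naming gave values per library for members past the threshold whose log2 fold change was 1 or more in either direction and whose mean RPKM reached 1 in the higher group, for the most abundant member of each family and for Slc3a2 with its light chains, and other tested members could be named. Some of these are also given by library. Genes of lists were those with the largest changes. Atf4, Ucp1, Fabp4, Acta1, Des and members below the filter that are given by library were chosen after their values were seen.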

Additional observations from a re-analysis of the deposited data

How the results depend on the processing

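Over all alternatives in which they were tested, the 18 members called higher and the 6 called lower kept their direction and their call, in 230 and 77 refits, and 5 of the 8 members that did not pass the test passed it in at least 1 refit. The higher count ran from 14 (filter at an RPKM of 5, which tests 22 members) to 19 and the lower count from 6 to 9. With the replicate number as a block the counts were 18 and 6, and 4765 higher and 3734 lower over all genes, so the block changed no call of a member. Same-numbered libraries deviated from their group means with r of −0.0674, −0.0329 and −0.0274 across genes, and differently numbered ones with r of −0.00411 to 0.0365. These values gave no sign that the numbers pair the libraries, but 3 libraries per group cannot settle it. At an RPKM of 5, the higher counts were 2 in SLC6 and 1 in SLC43, the lower counts 2 in SLC7 and 0 in SLC43, and the median log2 fold changes 0.98 over all members, 2.40 in SLC3, 1.87 in SLC7, −1.38 in SLC36, 0.63 in SLC38 and 1.56 in SLC43. With no filter, where many members are near 0, 3 SLC1 members were higher, 1 SLC6 member was lower, and the medians were 0.0436 over all members, 0.24 in SLC1, −0.0010 in SLC6 (reversed from 0.91), 0.0687 in SLC7, −0.12 in SLC36 and 0.14 in SLC38. With libraries scaled to the same median, the lower counts were 1 in SLC6, 2 in SLC7 and 2 in SLC38, and the medians 0.59 over all members, 0.69 in SLC1, 1.18 in SLC3, 0.80 in SLC6, −0.36 in SLC36 and 0.11 in SLC38 (from 0.22). With the authors' log2 values, 2 SLC7 members were lower and the medians were 0.61 over all members, 0.72 in SLC1, 1.21 in SLC3 and 1.09 in SLC6. A pseudocount of 0.1 gave medians of 1.21 in SLC6, 1.90 in SLC7, 0.47 in SLC38 and 0.62 in SLC43. Leaving out 1 library gave 1 to 2 higher SLC3 members (2 without CTL replicate 2, Slc3a1), 1 to 2 lower SLC7 members (2 without CTL replicate 1 or 4CBA replicate 1, Slc7a6os), a SLC6 median of 0.86 to 0.97, and a SLC38 median of 0.13 to 0.28, lowest without CTL replicate 2 and 0.15 without 4CBA replicate 3. The filters change which members are tested and the scaling subtracts a constant, and for the other settings the cause was not tested. Low members such as Slc7a7 and Slc1a7 rest on few reads, and depth limits what can be said of the 34 members below the filter.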
